A study of Mus musculus with 18 samples.

Results

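Desmosome and intercalated disc adhesion genes are described here as 8 genes, Dsp, Pkp2, Jup, Dsg2, Dsc2, Cdh2, Ctnna3 and Tjp1, measured by 9 probe sets. They were taken as every probe set whose only gene symbol in the platform annotation is 1 of the 8 names, out of 18781 genes and 35382 probe sets in the table. RNA was measured on 18 Affymetrix arrays in 6 groups of 3: heart, hippocampus and skeletal muscle of transgenic mice (TG) and the same tissues of wild type littermates (WT), all C57BL/6. TG mice, titled +/+, carry TN-XXL, a calcium sensor protein built from 2 fluorescent proteins joined by a calcium-binding part of troponin C. The sources used here do not give the promoter that drives the transgene, the age and sex of the mice, or whether arrays of different tissues share animals. Nothing says that the arrays of a group came from separate mice, and a p-value then covers only the spread between these samples, which may be technical. Values are RMA values on the log2 scale, where a difference of 1 is a doubling, and the number of arrays limits their precision.

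Heart muscle cells are joined end to end at the intercalated disc, where desmosomes anchor intermediate filaments and adherens junctions anchor actin, and gap junctions couple the cells electrically. In a desmosome the cadherins desmoglein and desmocollin bind across the gap between cells, plakoglobin and plakophilin bind their tails, and desmoplakin ties the complex to desmin. Skeletal muscle fibres are not joined by such discs, while brain cells use N-cadherin and catenins at synapses and tight junction plaque proteins at the vessel wall. Human variants in several of these genes cause arrhythmogenic cardiomyopathy.

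The tissue labels were checked against marker genes. Means of 11 cardiac muscle markers lay at 9.88 to 10.54 on the heart arrays, means of 12 skeletal muscle markers at 11.14 to 11.24 on the muscle arrays and means of 7 dentate granule cell markers at 6.67 to 6.86 on the hippocampus arrays, with 0 markers of the matching list under the array median. Arrays of 1 group correlated at 0.982 to 0.993. The array median over all probe sets was 2.61 to 2.63 in heart, 3.68 to 3.71 in hippocampus and 2.44 to 2.49 in muscle, so a difference against hippocampus carries a shift of the whole array. Values under the array median were taken as close to background, though no background level was measured. The exact size of a difference against such a value cannot be read. In hippocampus, where the median was higher, a value under it can still stand above the medians of heart and muscle, as for Dsg2.

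Of the 8 genes, 7 had all 6 heart arrays above all 12 other arrays, and Tjp1 was the exception. Among all probe sets, 4.72% had this pattern. Heart was called higher than muscle for 8 of 8 genes in TG mice, beside 25.3% of all probe sets, and for 8 of 8 in WT mice, beside 25.6% (limma, adjusted p at most 6.72e-06). Heart was called higher than hippocampus for 7 of 8 genes in TG mice, beside 9.41%, and for 7 of 8 in WT mice, beside 9.46%. Tjp1 was called lower in heart than in hippocampus as deposited, a sign that turned under other scalings, beside 65.8% of all probe sets in TG and 67.3% in WT mice. Hippocampus was called higher than muscle for 6 of 8 genes, beside 67.9% in TG and 70.1% in WT mice. Of these 6, Dsg2 and Dsc2 were under the array median in both tissues, and the sign of Dsc2 turned with arrays centred on their medians. Called means an adjusted p under 0.05, with Benjamini-Hochberg adjustment over the whole table. These are whole tissues, so fewer cells of a type and less RNA per cell cannot be told apart.

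**Figure D1:**
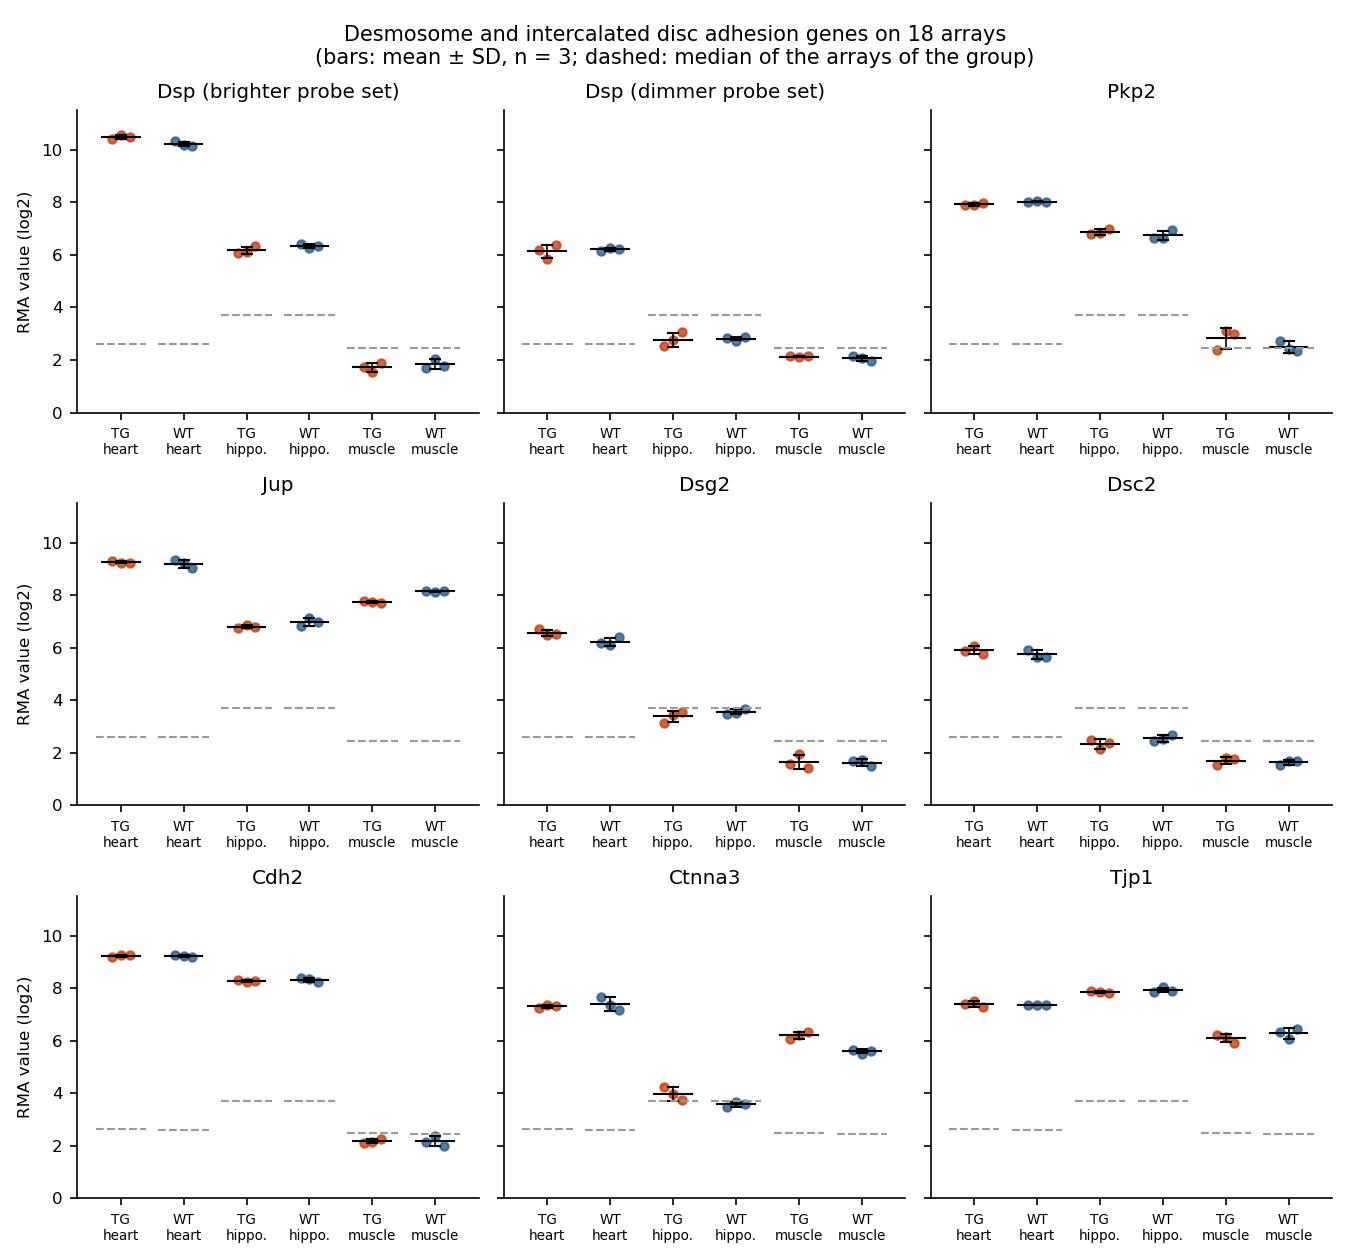
RMA values (log2) of the 9 probe sets on each of the 18 arrays, with mean and SD of each group of 3, and the array median as a dashed line. Heart stands highest in every panel but Tjp1, and Dsp, Dsg2, Dsc2 and Cdh2 lie under the array median in muscle.

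Dsp encodes desmoplakin, the plaque protein that ties desmosomes to intermediate filaments. Its brighter probe set read 10.42, 10.55 and 10.48 on the TG heart arrays and 10.31, 10.18 and 10.15 on the WT heart arrays. It read 6.08, 6.12 and 6.32 in TG hippocampus and 6.41, 6.27 and 6.32 in WT hippocampus. In muscle it read 1.74, 1.54 and 1.88 in TG and 1.69, 2.05 and 1.75 in WT mice. The 3 tissues did not overlap, and every muscle array was under its array median. The difference of heart minus muscle, 8.77 ± 0.11 in TG and 8.38 ± 0.11 in WT mice (SE of the fit), was taken against these low values, so its exact size cannot be read. Heart minus hippocampus was 4.31 ± 0.11 in TG and 3.88 ± 0.11 in WT mice. A dimmer Dsp probe set ran the same way between heart and muscle, at 6.18, 5.86 and 6.36 in TG heart and 6.15, 6.26 and 6.22 in WT heart, against 2.14, 2.09 and 2.14 in TG muscle and 2.16, 2.07 and 1.98 in WT muscle. The probe sets parted over hippocampus minus muscle. By the brighter one it was 4.45 in TG and 4.50 in WT mice, but by the dimmer one 0.65 in TG and 0.75 in WT mice. The dimmer values were close to the medians of all probe sets, 0.65 in TG and 0.675 in WT mice. On the dimmer one the hippocampus arrays, 2.53 to 3.05 in TG and 2.74 to 2.87 in WT mice, were all under their array median.

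The promoter of Dsp is printed because Dsp ties the complex to the filaments and both of its probe sets were called higher in heart than in either other tissue. It is the RefSeq stretch of GRCm38.p6, chr13:38151044-38151343 on the plus strand, from 250 bases before to 50 after the annotated start, written 5′ to 3′ with matches to the GC box GGGCGG, on either strand, in capitals.
Dsp: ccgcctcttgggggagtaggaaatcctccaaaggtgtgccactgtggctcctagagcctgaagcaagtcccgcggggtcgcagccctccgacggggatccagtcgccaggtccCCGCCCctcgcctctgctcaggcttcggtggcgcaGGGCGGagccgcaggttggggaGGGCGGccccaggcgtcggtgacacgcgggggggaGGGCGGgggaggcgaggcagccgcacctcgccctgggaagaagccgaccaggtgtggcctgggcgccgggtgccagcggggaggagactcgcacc
It holds 4 GC boxes and 27 CpG dinucleotides, with 73.0% G and C, against medians of 7 CpG and 52.7% over 32851 RefSeq promoters of the same length. A GC box occurs in 35.7% of those promoters. The E-box, searched on both strands as CACGTG and present in 7.15% of promoters, was not found in the Dsp window. Its core CANNTG, which 72.3% of promoters hold, had 1 match there, not in capitals. The GATA factor motif, searched as AGATAA on both strands and present in 11.2% of promoters, had none. The TATA box TATAAA, which 13.6% of promoters hold on either strand, was also without a match. These letters describe the window only.

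Dsg2 and Dsc2 encode desmoglein 2 and desmocollin 2, the desmosomal cadherins of heart muscle. Dsg2 read 6.70, 6.48 and 6.51 in TG heart and 6.18, 6.12 and 6.40 in WT heart, 3.15, 3.45 and 3.57 in TG hippocampus and 3.48, 3.53 and 3.66 in WT hippocampus, and 1.59, 1.94 and 1.43 in TG muscle and 1.69, 1.72 and 1.48 in WT muscle. Dsc2 read 5.89, 6.08 and 5.78 in TG heart and 5.93, 5.65 and 5.65 in WT heart, 2.48, 2.15 and 2.39 in TG hippocampus and 2.44, 2.52 and 2.68 in WT hippocampus, and 1.54, 1.79 and 1.76 in TG muscle and 1.54, 1.71 and 1.69 in WT muscle. For both genes every heart array stood above its array median and every other array below it. Dsg2 in heart exceeded muscle by 4.91 ± 0.14 in TG and 4.60 ± 0.14 in WT mice, and exceeded hippocampus by 3.17 ± 0.14 in TG and 2.68 ± 0.14 in WT mice. Dsc2 in heart exceeded muscle by 4.22 ± 0.12 in TG and 4.10 ± 0.12 in WT mice, and exceeded hippocampus by 3.58 ± 0.12 in TG and 3.19 ± 0.12 in WT mice. Hippocampus exceeded muscle by 0.64 ± 0.12 in TG and 0.90 ± 0.12 in WT mice for Dsc2, close to the median of all probe sets in TG mice (0.65) and 0.23 above it in WT mice. The sign of that Dsc2 difference turned to −0.58 in TG and −0.36 in WT mice when arrays were centred on their medians.

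Pkp2, the gene of plakophilin 2, which links desmosomal cadherins to desmoplakin, had values well above the array median in hippocampus too. It read 7.88, 7.88 and 7.99 in TG heart and 8.01, 8.06 and 8.003 in WT heart, and 6.79, 6.83 and 6.99 in TG hippocampus and 6.64, 6.64 and 6.93 in WT hippocampus. In muscle it read 2.37, 3.10 and 3.00 in TG and 2.73, 2.41 and 2.34 in WT mice, on either side of the array median. Heart exceeded muscle by 5.09 ± 0.16 in TG and 5.53 ± 0.16 in WT mice. Heart minus hippocampus was 1.05 ± 0.16 in TG and 1.29 ± 0.16 in WT mice. Hippocampus minus muscle was 4.05 ± 0.16 in TG and 4.24 ± 0.16 in WT mice. The muscle values of Pkp2 lay close to the array median, so the exact size of a difference against them cannot be read.

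Cdh2 encodes N-cadherin, the adherens junction cadherin of heart muscle and of many synapses. It read 9.19, 9.25 and 9.26 in TG heart and 9.24, 9.21 and 9.19 in WT heart, 8.31, 8.24 and 8.28 in TG hippocampus and 8.38, 8.34 and 8.24 in WT hippocampus, and 2.105, 2.14 and 2.27 in TG muscle and 2.15, 2.37 and 2.01 in WT muscle. Heart and hippocampus both stood far above muscle, where all 6 arrays were under the array median. Hippocampus minus muscle was 6.10 ± 0.08 in TG and 6.14 ± 0.08 in WT mice, against those low muscle values. Heart minus hippocampus was 0.96 ± 0.08 in TG and 0.90 ± 0.08 in WT mice, or 1.54 and 1.51 above the median of all probe sets (−0.59 in TG and −0.61 in WT mice).

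Jup and Ctnna3 had muscle, not hippocampus, in second place. Jup encodes plakoglobin, also called gamma-catenin, a plaque protein of both desmosomes and adherens junctions. Ctnna3 encodes alpha-T-catenin, an actin linker of the intercalated disc that binds plakophilin 2. Jup read 9.32, 9.23 and 9.23 in TG heart and 9.33, 9.21 and 9.03 in WT heart, 6.74, 6.86 and 6.78 in TG hippocampus and 6.84, 7.13 and 6.98 in WT hippocampus, and 7.76, 7.74 and 7.70 in TG muscle and 8.15, 8.13 and 8.14 in WT muscle. Ctnna3 read 7.25, 7.36 and 7.33 in TG heart and 7.67, 7.34 and 7.18 in WT heart, 4.25, 3.98 and 3.72 in TG hippocampus and 3.47, 3.66 and 3.59 in WT hippocampus, and 6.06, 6.21 and 6.34 in TG muscle and 5.66, 5.51 and 5.60 in WT muscle. Neither gene was under the array median in heart or muscle, and the tissues did not overlap for either gene. For Jup, heart minus muscle was 1.52 ± 0.09 in TG and 1.05 ± 0.09 in WT mice, and heart minus hippocampus 2.46 ± 0.09 in TG and 2.21 ± 0.09 in WT mice. For Ctnna3, heart minus muscle was 1.11 ± 0.13 in TG and 1.80 ± 0.13 in WT mice, and heart minus hippocampus 3.33 ± 0.13 in TG and 3.82 ± 0.13 in WT mice. Hippocampus minus muscle was −0.94 ± 0.09 in TG and −1.16 ± 0.09 in WT mice for Jup, and −2.22 ± 0.13 in TG and −2.02 ± 0.13 in WT mice for Ctnna3. Genes called lower in hippocampus than in muscle made up 8.47% of all probe sets in TG and 8.1% in WT mice.

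Tjp1 encodes ZO-1, a scaffold of tight and adherens junctions that also borders gap junctions of the disc. It read 7.39, 7.51 and 7.29 in TG heart and 7.36, 7.36 and 7.35 in WT heart, 7.88, 7.86 and 7.80 in TG hippocampus and 7.87, 8.03 and 7.90 in WT hippocampus, and 6.23, 6.14 and 5.91 in TG muscle and 6.33, 6.06 and 6.43 in WT muscle. Muscle was lowest on every array, and as deposited hippocampus was above heart. Heart minus muscle was 1.30 ± 0.10 in TG and 1.09 ± 0.10 in WT mice. Heart minus hippocampus was −0.45 ± 0.10 in TG and −0.57 ± 0.10 in WT mice, which is 0.14 and 0.04 above the median of all probe sets. That sign depends on the scaling, at 0.62 in TG and 0.51 in WT mice with arrays centred on their medians.

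**Figure D2:**
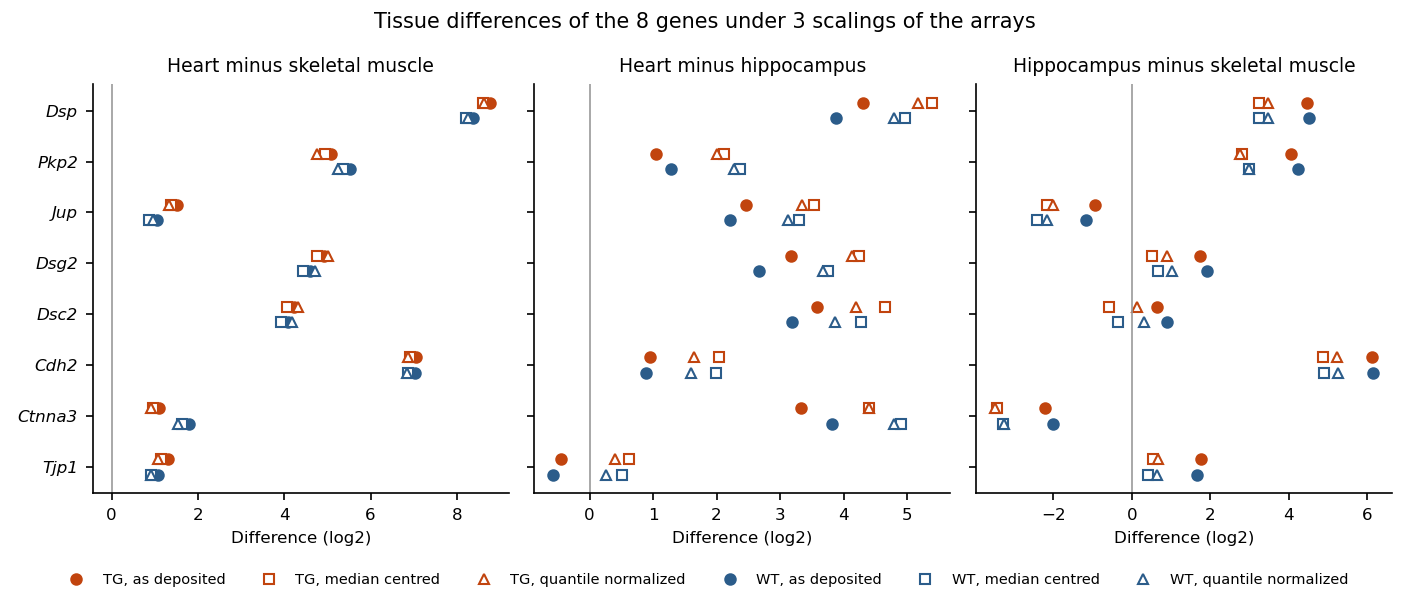
Differences between tissues (log2) for each gene in TG and WT mice, as deposited (filled circles), with arrays centred on their medians (squares) and after quantile normalization (triangles). Heart minus muscle hardly depends on the scaling, while Tjp1 changes side of 0 in heart minus hippocampus and Dsc2 in hippocampus minus muscle.

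The median of the 8 genes was 4.57 in TG and 4.35 in WT mice for heart minus muscle, beside 0.07 over all probe sets in either genotype. For heart minus hippocampus it was 2.82 in TG and 2.44 in WT mice, beside −0.59 and −0.61. Other desmosome genes, most of them known from skin and other epithelia, differed less between heart and muscle, with a median of 0.09 over 11 measured genes in TG and 0.04 in WT mice. Of these 11 genes, 7 in TG heart and 8 in WT heart were under the array median on every array. Of the 11, 2 were called higher in heart than in muscle in either genotype, beside the 25.3% of all probe sets in TG and 25.6% in WT mice given above. They were Perp, a membrane protein needed for desmosome assembly in skin, with heart minus muscle 4.47 ± 0.20 in TG and 5.62 ± 0.20 in WT mice, and Pkp4, a plakophilin relative, with 2.60 ± 0.13 in TG and 2.17 ± 0.13 in WT mice. Perp in WT muscle was under the array median on 2 of 3 arrays, so the exact size of its WT difference cannot be read. In TG mice Pkp1 and Dsg3, 2 of the 11, were called lower, beside 13.7% of all probe sets. Both had means under the array median in either tissue. Means of 11 epithelial and skin markers were 2.05 to 2.17 on TG heart arrays and 2.08 to 2.09 on WT heart arrays, with 9 of 11 under the array median.

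Among catenins and adherens junction plaque genes, 11 of 13 measured were called higher in heart than in muscle in TG mice and 9 of 13 in WT mice, again beside 25.3% of all probe sets in TG and 25.6% in WT mice. Ctnna1, alpha-E-catenin, exceeded muscle by 2.52 ± 0.08 in TG heart and 3.06 ± 0.08 in WT heart. Against hippocampus, 6 of the 13 were called higher in heart and 7 lower in either genotype. All probe sets had 9.41% called higher and 65.8% lower in TG mice, and 9.46% higher and 67.3% lower in WT mice. Among the 7 were Ctnna2 and Ctnnd2, a neuronal alpha-catenin and delta-catenin. Their heart minus hippocampus was −5.20 and −7.41 in TG mice and −5.11 and −7.74 in WT mice. Ctnna2 was under the array median on 3 of 3 heart arrays of each genotype. Ctnnd2 was under it on 2 TG and 3 WT heart arrays, so the exact sizes cannot be read. Of 10 other cadherins, 3 were called higher in heart than in muscle in either genotype, a share near that of all probe sets, among them Cdh11 (2.44 ± 0.10 in TG and 2.48 ± 0.10 in WT mice). Cdh15, M-cadherin, a cadherin of muscle precursor cells, was lower in heart by 2.59 ± 0.16 in TG and by 3.28 ± 0.16 in WT mice. Cdh11 in muscle and Cdh15 in heart were under the array median on every array, so these exact sizes cannot be read. Of 8 intermediate filament genes, 2 were called higher in heart than in muscle in either genotype, and 3 in TG and 2 in WT mice were called lower. All probe sets had 25.3% called higher and 13.7% lower in TG mice, and 25.6% higher and 13.1% lower in WT mice. Synm, synemin, which binds desmin, had heart minus muscle −5.42 ± 0.11 in TG and −5.51 ± 0.11 in WT mice.

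Genotype was compared within each tissue, the question named by the factorial design. In skeletal muscle 1 of the 8 genes rose, 1 fell and 6 did not pass, beside 8.15% of all probe sets called (3.86% higher and 4.3% lower) and 14.6% of the 18044 probe sets with a group mean of 4 or more. The 8 genes' median difference was 0.01, beside 0.02 over all probe sets. The count of 2 fell to 1 when only the 6 muscle arrays were fitted.

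Ctnna3 was higher in transgenic muscle, at 6.20 ± 0.14 in TG and 5.59 ± 0.08 in WT arrays (SD, n = 3 each), a difference of 0.61 ± 0.13 or 1.53-fold (95% interval 0.32 to 0.90, limma adjusted p = 0.00914). All 3 TG muscle arrays lay above all 3 WT muscle arrays, as in 11.6% of all probe sets. Jup was lower, at 7.73 ± 0.03 in TG and 8.14 ± 0.01 in WT arrays (SD, n = 3 each), a difference of −0.41 ± 0.09 (95% interval −0.59 to −0.23, limma adjusted p = 0.00670). All 3 TG muscle arrays lay below all 3 WT muscle arrays, as in 10.3% of all probe sets. With only the muscle arrays Ctnna3 kept its call (adjusted p = 0.0425) and Jup did not (adjusted p = 0.0597). Both kept their calls in each of the 6 fits that left out 1 muscle array.

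The promoters of these 2 genes are printed because they alone among the 8 passed the genotype test in any tissue. They are RefSeq stretches of GRCm38.p6 of the same extent as above, with GC boxes in capitals. The Jup window is chr11:100397741-100398040 on the minus strand. Ctnna3 has 3 annotated starts in the table, chr10:63429848-63430147, chr10:63457261-63457560 and chr10:63820805-63821104 on the plus strand. The second is shown with its match to CATTCC, the MCAT motif that 14.7% of promoters hold on either strand, in capitals as read on the other strand. The one at start 3 is shown with its TATA box in capitals.
Jup: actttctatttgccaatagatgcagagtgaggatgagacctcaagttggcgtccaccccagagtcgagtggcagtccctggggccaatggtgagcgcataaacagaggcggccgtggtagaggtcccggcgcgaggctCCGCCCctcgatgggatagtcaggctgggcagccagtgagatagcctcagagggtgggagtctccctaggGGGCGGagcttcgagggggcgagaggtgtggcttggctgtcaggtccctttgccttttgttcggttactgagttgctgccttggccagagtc
Ctnna3 start 1: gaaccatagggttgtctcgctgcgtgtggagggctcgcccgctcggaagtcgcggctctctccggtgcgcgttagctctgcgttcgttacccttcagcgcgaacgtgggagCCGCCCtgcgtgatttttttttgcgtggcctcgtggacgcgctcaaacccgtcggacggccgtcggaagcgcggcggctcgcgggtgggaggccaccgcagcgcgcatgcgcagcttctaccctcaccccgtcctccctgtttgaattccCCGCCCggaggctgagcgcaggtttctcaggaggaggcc
Ctnna3 start 2: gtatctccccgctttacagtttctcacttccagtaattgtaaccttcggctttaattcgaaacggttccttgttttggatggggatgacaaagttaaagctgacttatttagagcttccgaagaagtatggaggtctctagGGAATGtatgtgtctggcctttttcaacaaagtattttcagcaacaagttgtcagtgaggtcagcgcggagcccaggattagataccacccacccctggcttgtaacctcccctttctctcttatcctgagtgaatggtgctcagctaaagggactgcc
Ctnna3 start 3: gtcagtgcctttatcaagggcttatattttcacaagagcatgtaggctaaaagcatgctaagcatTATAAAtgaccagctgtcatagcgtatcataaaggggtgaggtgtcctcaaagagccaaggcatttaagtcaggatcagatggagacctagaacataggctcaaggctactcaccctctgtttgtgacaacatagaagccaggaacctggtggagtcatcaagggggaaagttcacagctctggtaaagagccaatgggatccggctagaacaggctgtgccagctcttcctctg
The Jup window holds 2 GC boxes, 14 CpG dinucleotides and 0 MCAT matches. The first Ctnna3 window holds 2 GC boxes and 39 CpG, the second holds 1 MCAT match and 7 CpG, and the one at start 3 holds 1 TATA box, 2 E-box cores and 2 CpG. The E-box letters CACGTG and the GATA letters occur in none of these windows, and the TATA box and the E-box core in no other of them. Which start was used in these tissues was not measured by the arrays.

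Marker lists of other cell types were read in muscle beside Jup and Ctnna3. Of all probe sets 8.15% were called there, and 14.6% of those with a group mean of 4 or more. Lists of neurons, astrocytes and choroid plexus also had 1 call of 8 each, so 1 call in such a list is near that share. Of 12 endothelial markers, 12 were lower in sign and 4 were called lower (Tek, Cldn5, Emcn and Egfl7), with array means of 5.99 to 6.35 in TG and 6.48 to 6.62 in WT muscle and summed levels of 874 to 1116 in TG and 1167 to 1310 in WT muscle on the linear scale. Of 6 adipocyte markers, 6 were higher in sign and 1 was called (Adipoq, 0.83, adjusted p = 0.0224), with array means of 5.72 to 6.09 in TG and 4.89 to 5.52 in WT muscle and summed levels of 468 to 547 in TG and 324 to 445 in WT muscle. Of 8 macrophage markers, 8 were higher in sign and 1 was called (Cd68, 0.93, adjusted p = 0.00165), with array means of 3.86 to 4.19 in TG and 3.49 to 3.89 in WT muscle and summed levels of 151 to 192 in TG and 105 to 154 in WT muscle. Of 11 cardiac muscle markers, 8 were higher in sign and 2 were called higher, Actc1, cardiac actin (0.47, adjusted p = 0.0105), and Myl2, a myosin light chain that slow skeletal fibres also use (0.57, adjusted p = 0.0447). Their array means were 4.77 to 4.90 in TG and 4.64 to 4.79 in WT muscle, and their summed levels, 3599 to 3868 in TG and 2738 to 2919 in WT muscle, did not overlap. The cardiac markers Nppa, Nppb, Ryr2, Myl7 and Tnni3 had means under the array median in muscle of both genotypes. On the muscle arrays 0 endothelial, 0 adipocyte and 1 macrophage marker were under the array median. Their part in the differences of Jup and Ctnna3 was not tested.

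Pkp2 in muscle was the largest difference that did not pass, at 0.33 ± 0.16 (95% interval −0.01 to 0.67, adjusted p = 0.272). Leaving out TG replicate 1, the lowest TG array, gave 0.56 and adjusted p = 0.0114. For Pkp2, 1 of 3 TG and 2 of 3 WT muscle arrays were under the array median, so background limits this difference too. Tjp1 differed by −0.18 ± 0.10 (95% interval −0.40 to 0.04, adjusted p = 0.377). Dsp, Dsg2, Dsc2 and Cdh2 were under the array median on all muscle arrays of both genotypes, so that a fall could not be read there. No rise was called for these genes. Their 95% intervals were −0.35 to 0.12 for Dsp and −0.28 to 0.32 for Dsg2, and −0.20 to 0.30 for Dsc2 and −0.18 to 0.18 for Cdh2.

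In heart, where all 8 genes were above the array median, 0 passed (limma, smallest adjusted p = 0.243), beside 3.19% of all probe sets called and 5.47% of those with a group mean of 4 or more. At an unadjusted p under 0.05 there were 2, Dsp and Dsg2. Dsp was 10.48 ± 0.07 in TG and 10.22 ± 0.09 in WT heart (SD, n = 3 each), a difference of 0.27 ± 0.11 (95% interval 0.04 to 0.50, limma adjusted p = 0.243). Its dimmer probe set gave −0.08 ± 0.13 (limma adjusted p = 0.862). Dsg2 was 6.56 ± 0.12 in TG and 6.23 ± 0.15 in WT heart (SD, n = 3 each), a difference of 0.33 ± 0.14 (95% interval 0.04 to 0.63, limma adjusted p = 0.259). For both genes the TG heart arrays lay above the WT heart arrays without overlap, as for 9.19% of all probe sets, and for Pkp2 they lay below, as for 9.35%. Pkp2 differed by −0.11 ± 0.16 (adjusted p = 0.842). Cdh2 differed by 0.02 with a 95% interval of −0.16 to 0.20, Tjp1 by 0.04 (−0.18 to 0.25), Jup by 0.06 (−0.12 to 0.25), Ctnna3 by −0.08 (−0.37 to 0.20) and Dsc2 by 0.17 (−0.08 to 0.42). Endothelial markers in heart were lower in sign in 12 of 12, with 2 called, at array means of 7.26 to 7.49 in TG and 7.68 to 7.75 in WT heart and summed levels of 2071 to 2387 in TG and 2712 to 2848 in WT heart. Skeletal muscle markers, 8 of 12 of them under the array median, were lower in sign in 9 of 12 with 1 called, at summed levels of 1755 to 1916 in TG and 2128 to 2532 in WT heart. Their part in the heart values was not tested.

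In hippocampus 0 of the 8 genes passed (limma, smallest adjusted p = 0.803), as for 0% of all probe sets, and 2 had an unadjusted p under 0.05. These were Ctnna3, at 3.98 ± 0.26 in TG and 3.58 ± 0.10 in WT arrays (SD, n = 3 each), a difference of 0.41 ± 0.13, and Jup, with −0.19 ± 0.09. The 3 TG arrays of Ctnna3 lay above the 3 WT arrays, as for 5.95% of all probe sets, but the WT arrays were under the array median and the TG arrays were just over it. The other 6 genes differed by −0.21 to 0.13.

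**Figure D3:**
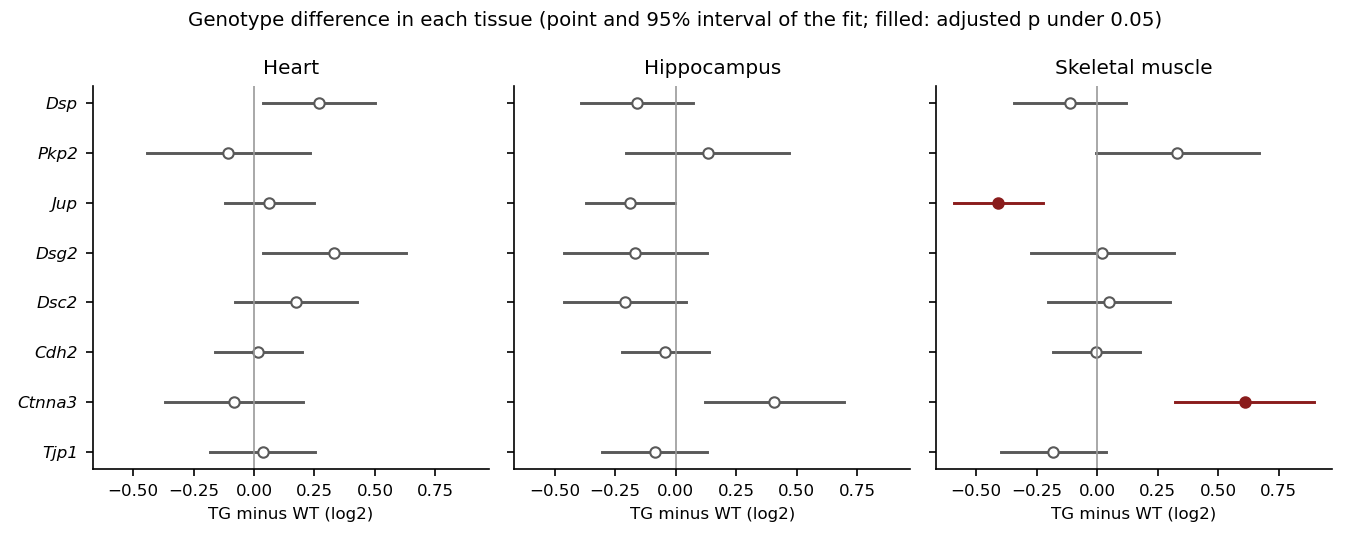
TG minus WT (log2) for each gene in heart, hippocampus and skeletal muscle, with the 95% interval of the fit, filled where the adjusted p is under 0.05. Jup (−0.41) and Ctnna3 (0.61) in muscle are the filled points.

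Averaged over the 3 tissues, Ctnna3 rose by 0.31 ± 0.08 (limma adjusted p = 0.0259) and Jup fell by 0.18 ± 0.05 (limma adjusted p = 0.0494), beside 5.8% of all probe sets called. When 1 array was left out, Ctnna3 kept this call in 11 of 18 fits and Jup in 2. Jup also lost it with the replicate block (adjusted p = 0.0651), with quantile normalization (0.0514) and with the mean of a gene's probe sets (0.0502). The test of unequal genotype differences among tissues called 0 of the 8 genes, beside 3.89% of all probe sets. Its smallest adjusted p was 0.0933 for Jup and 0.108 for Ctnna3, and 3 genes had an unadjusted p under 0.05. The genotype difference in heart minus that in muscle was 0.47 ± 0.12 for Jup (limma adjusted p = 0.0551, beside 2.55% of all probe sets called) and −0.69 ± 0.19 for Ctnna3 (limma adjusted p = 0.0723). Jup passed this last test without WT heart replicate 1 (adjusted p = 0.0348), with dim probe sets left out (0.0223), with an intensity trend and robust prior (0.0235) and with median centred arrays (0.0499). Ctnna3 passed it without WT heart replicate 3 (adjusted p = 0.0430) and with dim probe sets left out (0.0349). In the limma fit without any of these changes, neither passed.

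Other junction genes were read from 6 lists, with 67 different genes measured. In muscle 3 rose and 11 fell, which is 20.9% of the 67, beside 8.15% of all probe sets and 14.6% of the brighter ones. The count of 14 was 10 without WT muscle replicate 2, at most 16 without any 1 array, and 3 with only the muscle arrays. In heart 0 rose and 5 fell (7.46%), beside 3.19% of all probe sets and 5.47% of the brighter ones. The count of 5 was between 2 (without WT heart replicate 1) and 6 when 1 array was left out, and 0 with only the heart arrays. In hippocampus 0 passed.

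Of 11 other desmosome genes in muscle, Perp rose by 0.98 ± 0.20 (limma adjusted p = 0.00631) to 3.25 ± 0.47 in TG arrays, against 2.27 ± 0.39 in WT arrays (SD, n = 3 each), a WT mean under the array medians. Pkp4 fell by 0.60 ± 0.13 (limma adjusted p = 0.00965), and 9 did not pass. Of 13 catenin and adherens junction plaque genes 2 fell, a share near the 14.6% of the brighter probe sets called in muscle. Sorbs2, a scaffold of the cytoskeleton, fell by 0.72 ± 0.10 and Afdn, afadin, which links nectins to actin, by 0.40 ± 0.07. Of 13 actin linkers, Tln2, talin 2, fell by 0.69 ± 0.11 and Xirp2, an actin-binding Xin repeat protein, by 0.45 ± 0.11, and Ilk, integrin-linked kinase, rose by 0.37 ± 0.10. Xirp2 lost its call without replicate 1 of TG or of WT muscle. Ilk lost it in 5 of the 6 fits that left out 1 muscle array, all but the one without TG replicate 2.

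Of 13 gap junction and disc membrane genes, 4 fell and 1 rose in muscle. Bves, a Popeye domain protein that binds cyclic AMP, stood at 6.99 ± 0.11 in TG and 7.96 ± 0.13 in WT muscle (SD, n = 3 each; difference −0.97 ± 0.09, limma adjusted p = 6.63e-06). Its relative Popdc3 fell by 0.40 ± 0.11 (limma adjusted p = 0.0268). Dlg1, a membrane scaffold, fell by 0.48 ± 0.08 and Kcnj2, an inward rectifier potassium channel, by 0.57 ± 0.14. Ank2, ankyrin B, rose by 0.35 ± 0.07. Kcnj2 and Popdc3 lost their calls without WT replicate 1 or 2 or TG replicate 2 or 3. Gja1, connexin 43, did not pass in muscle. Of 8 intermediate filament genes Synm fell by 0.42 ± 0.11, a call lost without WT replicate 1 or 2 or TG replicate 1. That 1 of 8 is near the 14.6% of the brighter probe sets called in muscle.

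Of 10 other cadherins 1 fell in muscle, beside 8.15% of all probe sets and 14.6% of the brighter ones called. Cdh4, R-cadherin, stood at 4.05 ± 0.28 in TG and 5.71 ± 0.45 in WT muscle (SD, n = 3 each; difference −1.67 ± 0.19, limma adjusted p = 5.75e-05). With only the muscle arrays fitted, 3 of the 14 genes kept their calls, Bves (adjusted p = 0.0123), Cdh4 (0.0277) and Sorbs2 (0.0495). The endothelial, adipocyte and macrophage markers given above each shared 1 sign within their list on the same arrays, and their part was not tested.

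In heart the 5 genes that fell were Gja1, by 0.74 ± 0.11, the filamin gene Flnc by 0.61 ± 0.13, the formin gene Fhod3 by 0.51 ± 0.10, Bves by 0.43 ± 0.09 and Afdn by 0.31 ± 0.07. Gja1 kept its call in each of the 6 fits that left out 1 heart array, at an adjusted p of 0.00154 to 0.0101. Afdn lost it in all 6, Flnc in 4 (without WT replicate 1 or 2 or TG replicate 2 or 3), Bves in 3 (without WT replicate 1 or 2 or TG replicate 3) and Fhod3 in 2 (without replicate 3 of WT or of TG). With only the heart arrays 0 of the 5 passed. Endothelial markers were lower on the same TG heart arrays, and their part was not tested.

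**Figure D4:**
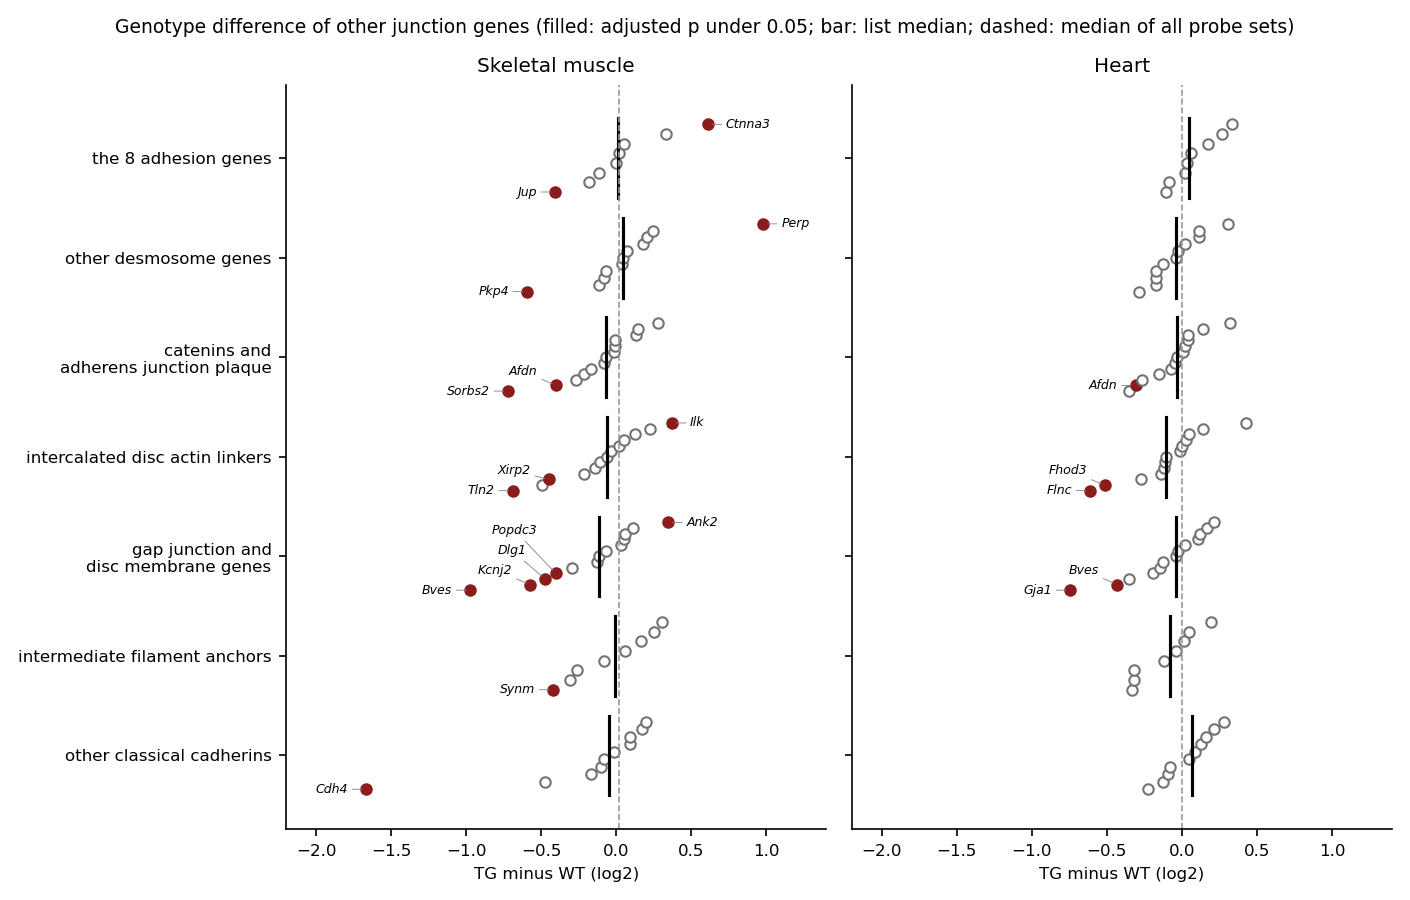
TG minus WT (log2) in skeletal muscle (left) and heart (right) for the 8 genes and 6 lists of other junction genes, 1 point per gene, filled and named where the adjusted p is under 0.05. The bar is the list median and the dashed line the median of all probe sets. Of the 67 other junction genes, 3 filled points lie right of 0 and 11 left of 0 in muscle, and 5 left of 0 in heart.

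Likeness of pattern was measured as Pearson's r over the 18 arrays among 11400 genes whose group means spanned at least 1. Because arrays of a group share their tissue, r mostly follows the 3 tissue levels, and it is given as a description. The genes most like Dsp were Kcnk3 (0.998), Ppip5k2 (0.997) and Rnf207 (0.997), and 141 genes exceeded 0.95. For Cdh2 they were Ryr2, a calcium release channel (0.999), Pygb (0.999) and Cacna1c, an L-type calcium channel (0.998). For Pkp2 they were Dock5, Ryr2 and Pygb (0.995 each). For Dsc2 they were Mylk3 (0.995), Hand2 (0.994) and Tnni3k (0.994), and for Dsg2 Gja3, Crip2 and Lbh (0.992 to 0.993). For Jup they were Vwa8, Acat1 and Ctsd (0.989 to 0.990), for Ctnna3 Lrrfip2 (0.991), Uqcrfs1 (0.990) and Lum (0.989), and for Tjp1 Itm2b (0.994), Mrpl33 (0.991) and Osbp2 (0.990), with 542 genes over 0.95. Among themselves, Pkp2 lay closest to Cdh2 (0.992), Dsp to Dsg2 (0.984), Dsc2 to Dsg2 (0.972) and Jup to Ctnna3 (0.944).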

How the data were processed

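RNA of 18 samples had been labelled with biotin and hybridised to Affymetrix arrays. The values deposited by the authors are log2 values of 1 probe set on 1 array. Per the submitters' processing notes, they were made by RMA in R 2.10.0. The sources used here name no chip definition and no filter, and do not say whether the arrays of all tissues were normalized as 1 set.

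Groups came from the sample labels. The annotation gave 1 symbol for 21153 of 35382 probe sets, several for 1867 and none for 12362, and 0 symbols needed an update through the RefSeq table of GRCm38.p6. A gene with several probe sets was read from the one with the highest mean. All 9 probe sets of the 8 genes had a group mean of at least 4. A limma model (limma 3.58.1, R 4.3.3) with 6 group means was fitted to all 18 arrays and all probe sets, with 12 residual and 2.67 prior degrees of freedom. Tests were two-sided (moderated F for the interaction), Benjamini-Hochberg adjusted, called under 0.05. The SE of a gene therefore pools its spread over the 3 tissues. Named were the 8 genes, up to 4 genes of each list with the smallest unadjusted p, and the 3 genes most like each of the 8. Popdc3 was named outside that rule, after its value was seen. The members and lists were chosen with earlier results of these data known, and no list was tested as a whole.

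Samples with the same number in the titles did not deviate together (r of −0.031 to 0.0396 over 9 pairs of TG and WT arrays), so the numbers were not used as pairs. The fit was tested on simulated data for the heart comparison, where 50 of 35382 probe sets carried each size of change: a log2 change of 0.3 was called for 2, a change of 0.5 for 11, a change of 1 for 36 and a change of 2 for 45, with 5 false calls. All other probe sets had equal simulated means in TG and WT heart. Promoters came from a RefSeq table, in which Dsp, Jup, Ctnna3 and Tjp1 had entries. Alternatives are given in the closing section. Figures were drawn with matplotlib 3.10.9.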

Additional observations from a re-analysis of the deposited data

Results flagged for a closer look

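For some of the other junction genes the genotype difference (TG minus WT, log2) was itself unequal between 2 tissues by a test of that difference in the limma model, with adjusted p over all probe sets. Of 25 genes examined in 3 pairs of tissues, 12 results passed, and 0 of them concerned the 8 adhesion genes. The 25 were the 8 adhesion genes and those other junction genes already called for genotype within a tissue on these same arrays. That choice favours a pass for the other junction genes, so the 12 and the 0 cannot be compared. Over all probe sets, 2.55% passed in heart minus muscle. No such share is given for the other pairs of tissues, so the results there stand without one.

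Cdh4 had a genotype difference in heart minus that in muscle of 1.94 (adjusted p = 0.00128), and in hippocampus minus muscle of 1.54 (adjusted p = 0.00544). Bves had 0.54 in heart minus muscle (adjusted p = 0.0364) and 0.63 in hippocampus minus muscle (adjusted p = 0.0117). Sorbs2 had 0.57 in heart minus muscle (adjusted p = 0.0462) and 0.70 in hippocampus minus muscle (adjusted p = 0.0114). In hippocampus minus muscle, Xirp2, whose hippocampus means lay under the array median, had 0.62 (adjusted p = 0.0359) and Dlg1 0.45 (adjusted p = 0.0388). These 5 genes had fallen in TG muscle, so the positive values mean a smaller fall, or none, in the other tissue.

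Perp had −1.15 in heart minus muscle (adjusted p = 0.0492) and Ank2 had −0.39 (adjusted p = 0.0499). Both had risen in TG muscle. Gja1, which had fallen in TG heart, had −0.79 in heart minus muscle (adjusted p = 0.0122) and −0.86 in heart minus hippocampus (adjusted p = 0.0198).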

How the results depend on the processing

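Counts over the 8 genes changed in these fits. With only the muscle arrays, the count called in muscle was 1 in place of 2. For the mean genotype difference the count was 1 in place of 2 with the replicate block (Jup adjusted p = 0.0651, changing no other call of the 8 genes), with quantile normalization (0.0514) and with the mean of a gene's probe sets (0.0502), and 0 to 1 when 1 array was left out. Ctnna3 kept that call in 11 of those 18 fits and Jup in 2. For the interaction the count was 1 in place of 0, with Jup called, when dim probe sets were left out and with an intensity trend and robust prior. Leaving out 1 array gave 2 to 3 in muscle, 0 in heart and in hippocampus, and 8 of 8 in each tissue comparison. Median centring reversed Tjp1 in heart minus hippocampus (0.62 in TG and 0.51 in WT mice) and Dsc2 in hippocampus minus muscle (−0.58 in TG and −0.36 in WT mice). Quantile normalization reversed Tjp1 (0.40 in TG and 0.27 in WT mice) and left Dsc2 in TG mice uncalled (0.13, adjusted p = 0.356). The median of all probe sets for heart minus hippocampus itself moved to 0.49 in TG and 0.47 in WT mice under median centring, and to 0.08 and 0.07 under quantile normalization. The other causes were not tested. Over all probe sets, muscle had 2884 calls, 2734 with the replicate block and 838 with only the muscle arrays, and heart had 1128, 1016 and 36. Alternatives for single genes of the other lists were chosen after seeing the data. Signals near background limit Dsp, Dsg2, Dsc2 and Cdh2 in muscle, and Pkp2 there lay on either side of the array median. In the simulated heart comparison 11 of 50 changes of 0.5 and 36 of 50 changes of 1 were called. Few probe sets were changed there, while the real heart comparison had 1128 calls. The simulated cutoff was therefore stricter, and these shares do not give the detection rate of the real comparison.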
